A study of Mus musculus with 20 samples.

Results

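The comparison described here is the effect of a probiotic mixture on colon gene expression averaged over healthy mice and mice with colitis. The arrays were chosen by their titles: 8 arrays of mice given the probiotic were set against 8 arrays of mice given saline, in a fit with 1 term for colitis and 1 for the probiotic, so that 16 of the 20 arrays of the study were used. The 4 groups held 4 female C57BL/6JOlaHsd mice each, about 11 weeks old, with total RNA of the middle part of the colon on 1 array per mouse. Probiotic colitis mice drank 3% dextran sulphate sodium (DSS) for 5 days and received the strains L930BB and IM386 in 100 µl of saline through a tube into the stomach, before DSS and alongside it. Saline colitis mice drank the same DSS without the strains, and their titles give their treatment as none, which the design text explains as saline. Probiotic healthy mice and saline healthy mice received the same 2 treatments without DSS, and the labels time the dosing only against DSS. The 4 arrays of colitis mice given cyclosporine were left out, because no healthy group received that drug. The labels give 5 mice per cage but not the cage of each mouse, so a cage shared within a group and the treatment cannot be told apart.

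DSS is a sulphated polymer that damages the colonic epithelium, so that luminal bacteria reach the tissue beneath it and draw in neutrophils and monocytes. That tissue, the lamina propria, is a bed of fibroblasts, blood and lymphatic vessels, macrophages and lymphocytes even in health, and its macrophages are replaced from blood monocytes under the influence of gut bacteria. Its mesenchymal cells lie under the epithelium and secrete bone morphogenetic proteins and Wnt antagonists, which set where crypt cells divide and where they mature. Probiotics are live bacteria given to change the microbiota or the mucosal immune system. A main effect asks which genes they move on average over mice with and without colitis. A gene moved mainly in colitis, or mainly in health, can also pass.

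Values are log2 expression, so a difference of 1 is a doubling. Array medians lay between 6.24 and 6.29, and pairs of arrays correlated at 0.965 to 0.994, none of them being identical. Colitis separated the arrays along the first principal component, which took up 62.3% of the variance and where healthy mice lay between −30.9 and −20.3. Along it the probiotic colitis mice lay at 12.4 (mouse 8) and 40.6 to 41.2 (the other 3), and the saline colitis mice at −0.254 (mouse 6) and 16.7 to 30.0. On the second component, with 8.04% of the variance, the 8 probiotic arrays lay between −10.9 and −4.52 and the 8 saline arrays between −0.949 and 28.2. Probiotic colitis mouse 8, saline colitis mouse 6 and saline healthy mouse 2 stood apart from their groups. They were chosen from the values of these same arrays, so counts without them are not an independent check. By root mean square deviation saline colitis mice 7 (0.206) and 5 (0.195) lay further out than saline healthy mouse 2 (0.191). The colon genes Cdx1, Cdx2, Cdh17, Vil1, Muc2, Slc26a3, Car1, Car4, Hoxb13 and Hoxd13 lay above the filter level of 5.30 on 16 of 16 arrays. So did Pdx1 (5.54 to 6.00), known from duodenum and pancreas, and Alb (6.14 to 7.61), known from liver, so that passing this level does not by itself mark the tissue.

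Of 16634 genes tested, 208 rose and 54 fell with the probiotic, which is 1.25% and 0.325% of the genes tested (limma, adjusted p under 0.05). The genes that rose included ones known from the connective tissue, vessels and macrophages of the gut wall: the growth factor Bmp4, the proteoglycan Dcn, the vessel receptors Tek and Lyve1, the macrophage receptor Adgre1 and the complement component C1qb were among them. Those that fell included the epithelial genes Fabp2, Agr2 and Guca2b, the translocon subunit Sec61b, the fatty acid elongation enzyme Hacd1 and the structural RNAs Rpph1 and Rnu3a. The changes were small. The 208 genes that rose had a median change of 0.44 (0.18 to 2.48), and 47 of them reached 1.5-fold, while the 54 that fell had a median change of −0.28 (−0.17 to −0.99), and 5 of them reached 1.5-fold. At 2-fold there were 2 higher genes and 0 lower ones, namely Clec12a, described with the macrophage genes, and a variable segment of the immunoglobulin kappa chain. At an unadjusted p under 0.05 the counts were 1598 up and 1385 down, and the median change over all genes was −0.01. Colitis itself, the other term of the fit, raised 3015 genes (18.1%) and lowered 3856 (23.2%). The design text calls the mice of a group biological replicates.

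**Figure D1:**
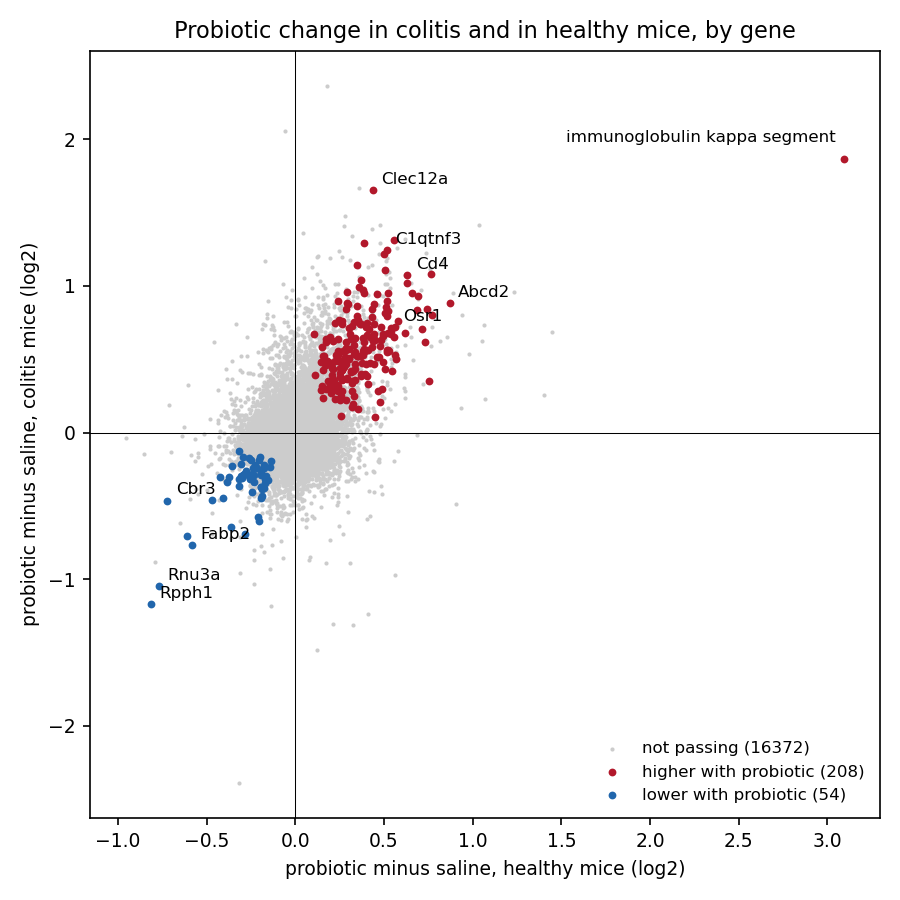
Each point is 1 of the 16634 genes, with its probiotic minus saline log2 change in healthy mice on the horizontal axis and in colitis mice on the vertical axis. Red points are the 208 genes that rose and blue points the 54 that fell in the main effect, with the same sign on both axes, and grey points are genes that did not pass.

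The main effect is the mean of the change within colitis and the change within healthy mice, and no gene's 2 changes differed past the threshold. The test of that difference, the interaction, called 0 genes in limma (1460 at an unadjusted p under 0.05, smallest adjusted p 0.288). Within colitis mice 261 genes rose (1.57% of those tested) and 77 fell (0.463%), while within healthy mice 0 passed in either direction (1530 at an unadjusted p under 0.05, smallest adjusted p 0.175). These counts rest on a spread shared by both states: fits of each state alone called 0 genes in colitis and 19 in healthy mice. With 1 array left out, the 338 calls within colitis became 35 (without probiotic colitis mouse 5) to 1187 (without saline colitis mouse 5). They also moved by over 1.5 times without probiotic colitis mouse 3 (106), 7 (68) or 8 (1182), saline colitis mouse 6 (75) or 10 (145), saline healthy mouse 7 (224) or probiotic healthy mouse 5 (221) or 7 (213). All 262 genes called in the main effect had the same sign in both states, which an average favours, and 218 of them had the larger change in colitis (182 of 208 higher genes and 36 of 54 lower ones). Of the 262, 141 also passed within colitis. The 2 changes share no arrays, and over all 16634 genes they correlated with a Pearson r of 0.393 and a Spearman rho of 0.262 and had the same sign for 58.8%. These coefficients run across genes, which are not independent replicates.

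For 132 genes (0.794% of those tested) the 4 probiotic arrays did not overlap the 4 saline arrays in colitis or in healthy mice, on the same side in both. They lay above for 106 (0.637%) and below for 26 (0.156%). On opposite sides, the probiotic arrays lay below in colitis and above in healthy mice for 10 genes (0.0601%) and the other way for 3 (0.018%). Of the genes called, 89 of the 208 that rose and 17 of the 54 that fell were separated in this way, a count that the same values chose. The 8 higher separated genes with the smallest p were Sntb1, Ptpre, Bmp4, Rab7b, Gpr141b, Ssbp2, Osr1 and Fgl2, all at an adjusted p of 0.0044, and the lower one with the smallest p was Hacd1, also at 0.0044.

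The promoters of the 2 named genes with the smallest p in each direction that the RefSeq promoter table holds are shown because these genes separated the treatments with and without colitis. The higher genes are Ptpre, at chr7:135537574-135537873 on the plus strand (the first of 3 starts), and Bmp4, at chr14:46390620-46390919 on the minus strand. The lower genes are Hacd1, at chr2:14055986-14056285 on the minus strand, and Sec61b, at chr4:47474411-47474710 on the plus strand. Each runs from 250 bases before the start of the gene to 50 after it, 5′ to 3′ on the gene's strand, in RefSeq's GRCm38.p6, and capitals mark a motif found.
Ptpre: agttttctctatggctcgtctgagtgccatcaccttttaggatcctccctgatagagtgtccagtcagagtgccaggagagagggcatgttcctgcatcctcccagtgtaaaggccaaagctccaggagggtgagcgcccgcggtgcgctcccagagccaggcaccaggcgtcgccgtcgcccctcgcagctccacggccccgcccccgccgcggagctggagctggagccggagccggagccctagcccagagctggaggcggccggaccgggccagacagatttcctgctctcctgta
Bmp4: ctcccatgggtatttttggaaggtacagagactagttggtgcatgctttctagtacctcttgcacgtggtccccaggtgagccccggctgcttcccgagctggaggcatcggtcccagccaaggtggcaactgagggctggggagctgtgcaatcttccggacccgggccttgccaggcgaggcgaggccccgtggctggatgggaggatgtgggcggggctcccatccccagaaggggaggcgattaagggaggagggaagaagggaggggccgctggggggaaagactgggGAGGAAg
Hacd1: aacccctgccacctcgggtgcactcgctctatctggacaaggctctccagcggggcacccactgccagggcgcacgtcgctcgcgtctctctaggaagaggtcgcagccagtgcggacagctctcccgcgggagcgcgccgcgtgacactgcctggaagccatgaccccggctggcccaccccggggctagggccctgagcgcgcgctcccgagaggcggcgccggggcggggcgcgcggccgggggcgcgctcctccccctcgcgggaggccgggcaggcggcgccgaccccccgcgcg
Sec61b: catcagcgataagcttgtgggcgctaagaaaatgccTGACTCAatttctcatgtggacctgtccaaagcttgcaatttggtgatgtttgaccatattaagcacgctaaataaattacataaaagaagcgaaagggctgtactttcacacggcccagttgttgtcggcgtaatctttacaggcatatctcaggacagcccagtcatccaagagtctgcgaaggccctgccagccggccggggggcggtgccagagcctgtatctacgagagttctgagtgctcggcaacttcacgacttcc
GAGGAA, a core bound by PU.1 and other ETS factors, the interferon-stimulated response element, and TGANTCA, the AP-1 element, were searched on both strands. In Bmp4 the letters GAGGAA stand at bases 294 to 299, and in Sec61b the letters TGANTCA at bases 37 to 43, while Ptpre and Hacd1 hold none of the 3 motifs in this window. The share of all 32851 promoters that hold GAGGAA is 28.3%, that of the interferon-stimulated response element 3.44% and that of TGANTCA 7.81%. Over the first promoters of the 13032 tested genes that have one in the table, the shares in the same order are 27%, 3.02% and 5.92%. The first promoters of the higher genes, 152 of which the table holds, have these motifs in 30.9%, 3.29% and 9.21%, and those of the 41 lower genes it holds in 31.7%, 2.44% and 2.44%. A match is a description of the letters, not a binding site.

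Bmp4, Osr1, C1qtnf3, Col14a1 and Sfrp1, known from mesenchymal cells, rose in the main effect. In the limma fit of all 16 arrays none of the 5 passed within healthy mice (adjusted p 0.295 to 0.556). Of the 5 only Osr1 passed in the limma fit of the 8 healthy arrays alone (adjusted p 0.0471). In what follows the values of single mice are given in the order of the animal numbers, which are 3, 5, 7 and 8 for probiotic colitis, 5, 6, 7 and 10 for saline colitis, 4, 5, 6 and 7 for probiotic healthy and 2, 4, 6 and 7 for saline healthy. Bmp4 encodes a secreted ligand of the bone morphogenetic protein pathway that restrains division of crypt stem cells. Its level was 9.97, 9.88, 9.86 and 10.09 in probiotic colitis mice, against 9.01, 8.43, 8.97 and 9.32 in saline colitis mice. In probiotic healthy mice it was 10.15, 10.27, 10.31 and 10.13, against 9.34, 9.94, 9.58 and 9.50 in saline healthy mice. Every probiotic mouse thus exceeded every saline mouse of its state, and saline colitis mouse 6 was the lowest of the 16. The main effect was 0.82 ± 0.11 (SE, 1.77-fold, adjusted p 0.0044), with 1.02 ± 0.15 within colitis and 0.63 ± 0.15 within healthy mice. Colitis itself lowered Bmp4, by a disease term of −0.46 (adjusted p 0.00361).

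Osr1 encodes a zinc finger transcription factor of mesenchymal progenitors and fibroblasts. Its level was 8.17, 8.47, 8.53 and 8.92 in probiotic colitis mice, against 7.80, 7.53, 7.92 and 7.98 in saline colitis mice. Probiotic healthy mice had levels of 9.37, 9.42, 9.42 and 9.28, against 8.70, 9.03, 8.74 and 8.77 in saline healthy mice. The groups did not overlap in either state, and healthy mice lay above colitis mice of the same treatment. Osr1 rose by 0.64 ± 0.09 (1.56-fold, adjusted p 0.0044), with 0.72 ± 0.13 within colitis and 0.56 ± 0.13 within healthy mice. C1qtnf3, which encodes a secreted protein with a C1q-like domain, was at 7.52, 7.93, 7.54 and 7.02 in probiotic colitis mice, against 6.13, 6.04, 6.40 and 6.47 in saline colitis mice. In healthy mice it was at 7.76, 7.86, 8.0 and 7.67 with the probiotic and at 7.03, 7.46, 7.62 and 7.11 with saline. Again the groups did not overlap, and probiotic colitis mouse 8 was the lowest of its group. C1qtnf3 rose by 0.88 ± 0.15 (1.84-fold, adjusted p 0.009).

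Col14a1 encodes a collagen that decorates collagen fibrils and rose by 0.81 ± 0.14 (1.75-fold, adjusted p 0.0163). Its 4 probiotic healthy arrays lay above the 4 saline healthy arrays, whereas in colitis probiotic mouse 3 (7.48) lay just under saline mouse 5 (7.50). Sfrp1, a secreted antagonist of Wnt ligands, rose by 0.93 ± 0.21 (1.91-fold, adjusted p 0.0393), with 1.31 ± 0.28 within colitis and 0.56 ± 0.28 within healthy mice. In colitis its groups overlapped through probiotic mouse 8 (9.48) and saline mouse 7 (9.79). The 4 arrays of probiotic healthy mice, at 9.49, 9.15, 8.94 and 8.97, lay above those of saline healthy mice, at 8.63, 8.60, 8.60 and 8.49.

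Of 18 tested genes of the matrix and fibroblast list 4 rose and 0 fell, beside 1.25% and 0.325% of all genes tested. The median change over the 18 was 0.29 (0.43 within colitis, 0.22 within healthy mice), beside −0.01 over all genes. All 18 changes were positive, at 0.07 to 0.75. The 4 were Dcn, Lum, Col6a1 and Pdgfrb. Dcn and Lum encode small proteoglycans that bind collagen fibrils, Col6a1 a chain of the beaded-filament collagen and Pdgfrb the receptor for platelet-derived growth factor on pericytes and fibroblasts. Dcn was at 12.40, 12.55, 12.44 and 12.25 in probiotic colitis mice, against 12.08, 10.93, 12.08 and 11.49 in saline colitis mice. Without colitis the levels were 12.17, 12.18, 12.09 and 12.14 in probiotic mice, against 11.40, 11.57, 11.65 and 11.65 in saline mice. Its groups did not overlap in either state, and saline colitis mouse 6 was the lowest of the 16. Dcn rose by 0.67 ± 0.13 (1.59-fold, adjusted p 0.02). The others rose by less: Lum by 0.56 ± 0.13 (adjusted p 0.0417), Col6a1 by 0.26 ± 0.06 (adjusted p 0.0365) and Pdgfrb, named after its value was seen, by 0.34 ± 0.08 (adjusted p 0.0499). Col1a1, the main fibrillar collagen chain of the list, had a change of 0.13 ± 0.11 (adjusted p 0.562) and did not pass.

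Smooth muscle markers had 0 of 14 members called, with 7 positive and 7 negative changes and a median of 0.00 (0.06 within colitis, −0.10 within healthy mice). The part of the muscle wall in the changes above was not tested. The mean level of that list was 9.49 to 9.99 in probiotic colitis mice, against 9.42 to 9.80 in saline colitis mice, and 10.09 to 10.24 in probiotic healthy mice, against 10.22 to 10.34 in saline healthy mice. Enteric neuron and glia markers had 0 of 13 called and a median of −0.00. In bulk tissue more cells of a type and more RNA per cell cannot be told apart, here and in the lists that follow. Of the calls in this group, those of Bmp4, Osr1, C1qtnf3, Col14a1 and Dcn were kept in each of the 16 fits that left out 1 array. The calls of Sfrp1, Col6a1, Lum and Pdgfrb were kept in 7, 7, 4 and 4 of the 16, and their highest adjusted p was 0.0823, 0.0796, 0.0862 and 0.105. The number of matrix genes called ran from 1 to 5 over those fits, and 2 were called without the 3 arrays that stood apart. Sfrp1, Col6a1, Lum and Pdgfrb were lost without saline colitis mouse 6 or 10, saline healthy mouse 2 or 7, probiotic healthy mouse 5 or probiotic colitis mouse 5 or 7.

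**Figure D2:**
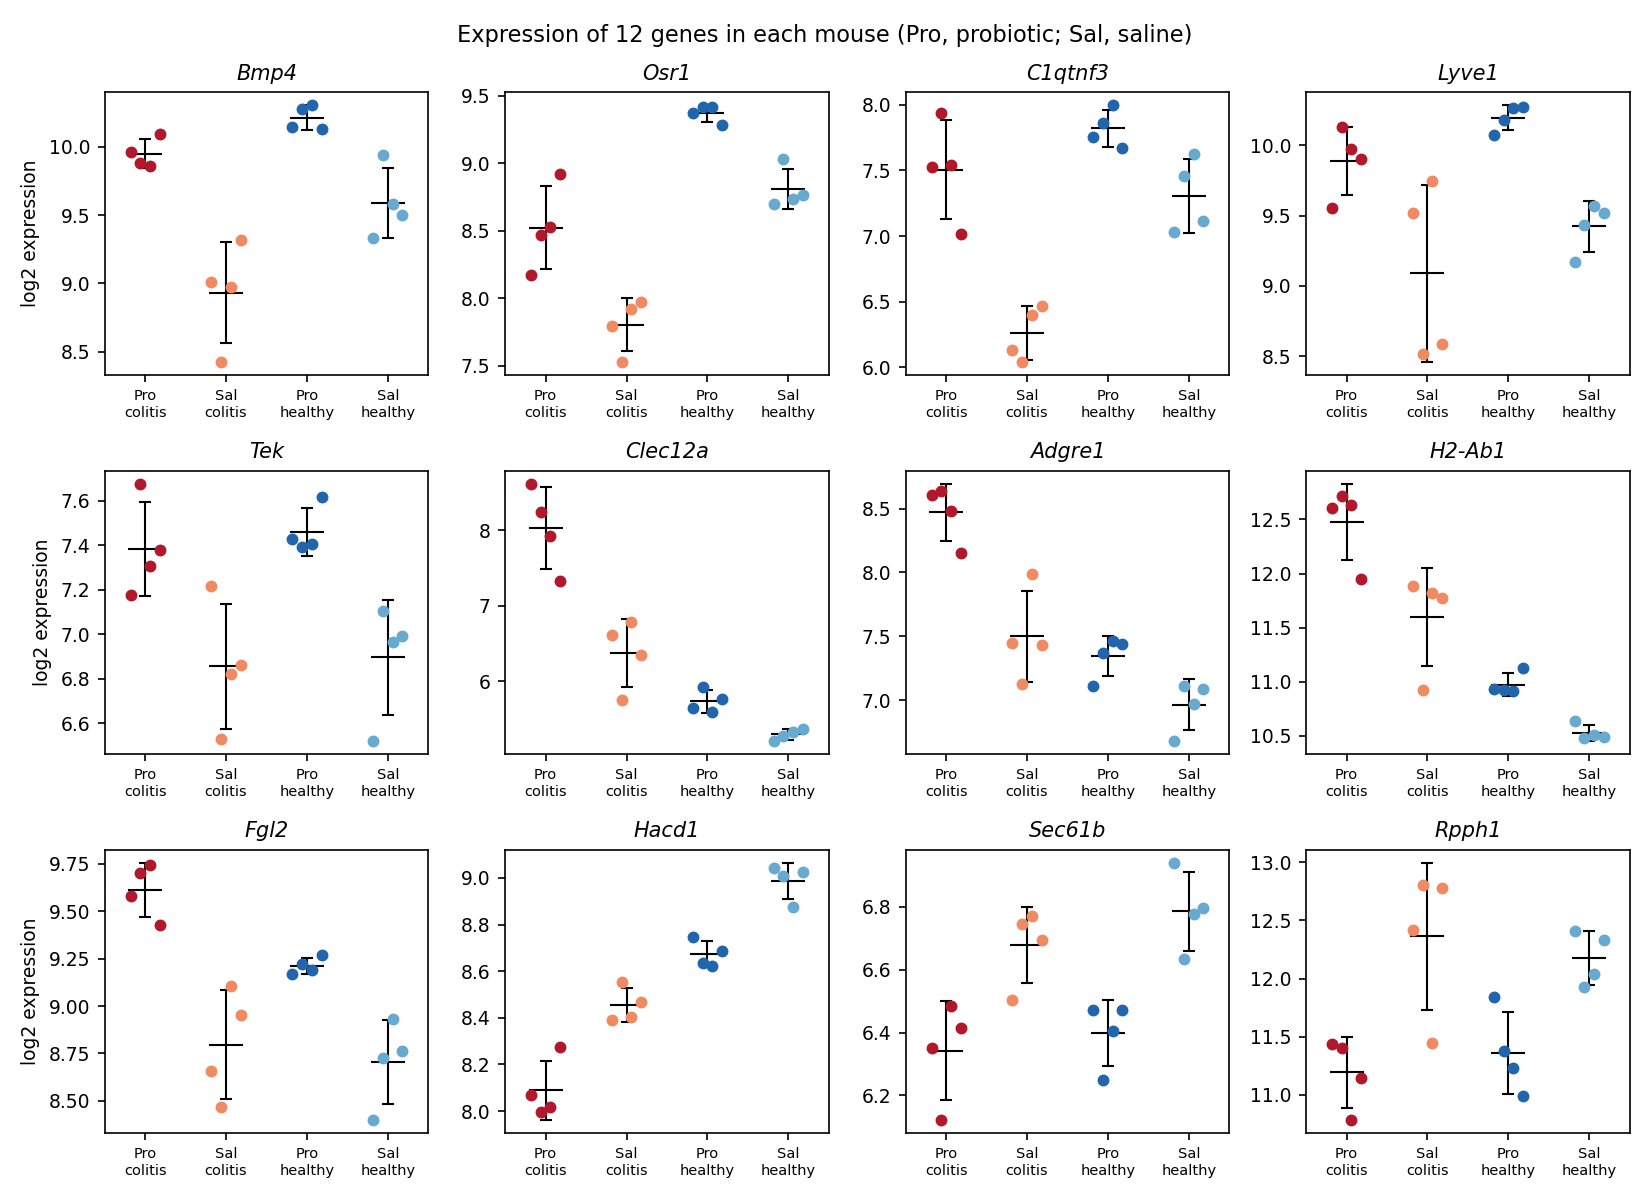
Log2 expression of 12 genes in each of the 16 mice, 1 panel per gene, with points for mice and black lines for the mean and SD of the 4 mice of a group (Pro, probiotic; Sal, saline). In the panels of Bmp4, Osr1, C1qtnf3, Clec12a, Adgre1, H2-Ab1 and Fgl2 the probiotic mice lie above the saline mice of the same state, in those of Hacd1, Sec61b and Rpph1 below them, and in those of Lyve1 and Tek the colitis groups overlap.

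Endothelial genes had the most members called of any list. Of 18 tested, 7 rose and 0 fell, beside 1.25% and 0.325% of all genes tested. All 18 changes were positive (0.03 to 0.79), with a median of 0.39, beside −0.01 over all genes. The median was 0.47 within colitis and 0.34 within healthy mice. The 7 were Tek, Ptprb, Lyve1, Flt4, Prox1, Kdr and Cdh5. Tek is the receptor for angiopoietins and Ptprb the phosphatase that restrains it, Kdr and Flt4 are receptors for vascular endothelial growth factors, Cdh5 is the cadherin of endothelial junctions, and Lyve1 and Prox1 are a hyaluronan receptor and a transcription factor of lymphatic vessels. Lyve1 is also found on some tissue macrophages.

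Lyve1 was at 9.56, 10.13, 9.97 and 9.90 in probiotic colitis mice, against 9.52, 8.52, 9.74 and 8.59 in saline colitis mice. In probiotic healthy mice it was at 10.08, 10.18, 10.26 and 10.27, against 9.17, 9.44, 9.57 and 9.52 in saline healthy mice. The healthy groups were apart, and in colitis saline mouse 7 lay above probiotic mouse 3 and saline mouse 5 just below it, while saline mice 6 and 10 lay about 1 log2 unit lower. Lyve1 rose by 0.79 ± 0.15 (1.72-fold, adjusted p 0.02), with 0.80 ± 0.22 within colitis and 0.77 ± 0.22 within healthy mice. Tek was at 7.18, 7.68, 7.31 and 7.38 in probiotic colitis mice, against 7.22, 6.53, 6.82 and 6.86 in saline colitis mice. In healthy mice its levels were 7.43, 7.39, 7.41 and 7.62 with the probiotic and 6.52, 7.11, 6.97 and 6.99 with saline. Only saline mouse 5 in colitis reached into the probiotic range. Tek rose by 0.55 ± 0.10 (1.46-fold, adjusted p 0.0185). Ptprb was separated in both states and rose by 0.53 ± 0.10 (1.45-fold, adjusted p 0.02), with 0.50 ± 0.15 within colitis and 0.57 ± 0.15 within healthy mice. The other 4, named after their values were seen, rose by 0.51 ± 0.10 (Flt4, adjusted p 0.027), 0.46 ± 0.10 (Prox1, adjusted p 0.0345), 0.36 ± 0.08 (Kdr, adjusted p 0.0409) and 0.60 ± 0.14 (Cdh5, adjusted p 0.0457).

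The mean level of the endothelial list was 7.72 to 8.09 in probiotic colitis mice, against 7.14 to 7.73 in saline colitis mice, and the ranges overlapped by little. In healthy mice it was 7.63 to 7.68 with the probiotic, against 7.16 to 7.43 with saline, with no overlap. The complement, MHC class II and interferon gamma response lists, described below, were also higher without overlap in healthy mice. The complement list was at 7.38 to 7.56 there, against 7.15 to 7.28. Colitis moved the endothelial list little by itself, with a median disease term of 0.18, beside 0.63 for the matrix list and 0.90 for the macrophage list. The disease term and the probiotic effect come from the same 16 arrays. Tek, Ptprb and Lyve1 kept their calls in each of the 16 fits that left out 1 array. Flt4 kept its call in 13, Prox1 in 9, Kdr in 6 and Cdh5 in 4 (adjusted p up to 0.0628, 0.0709, 0.0915 and 0.1), and all 4 were lost without saline healthy mouse 2, saline colitis mouse 10 or probiotic colitis mouse 7. The number of endothelial genes called ran from 3 to 10 over those fits, the median change from 0.32 (without saline colitis mouse 6) to 0.43, and without the 3 arrays that stood apart 9 were called.

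**Figure D3:**
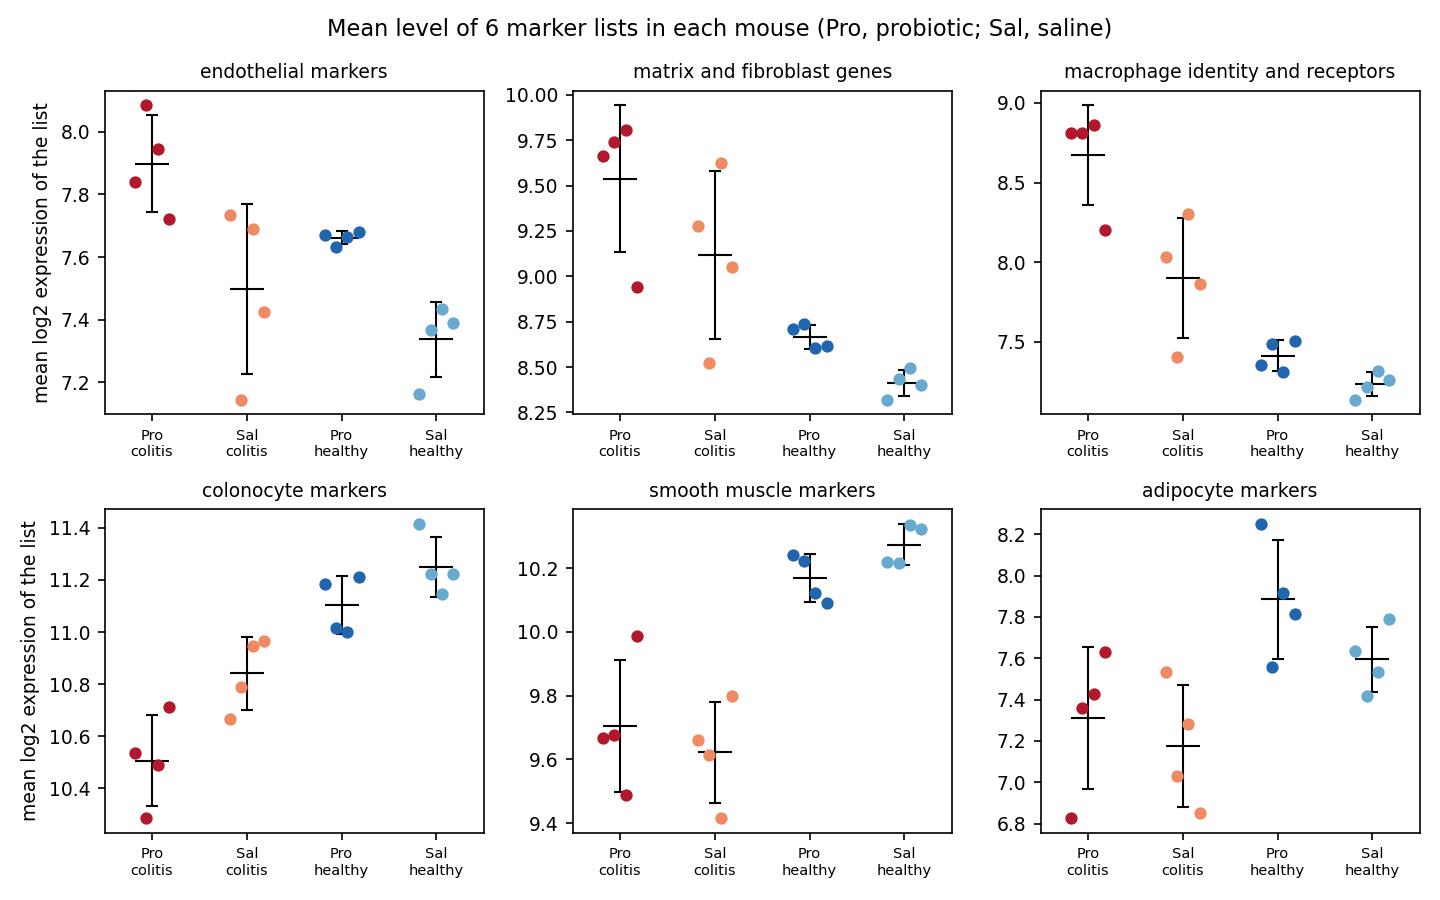
Mean log2 expression of 6 marker lists in each mouse, with the mean and SD of the 4 mice of a group. Endothelial and matrix lists are higher with the probiotic in healthy mice without overlap (7.63 to 7.68 against 7.16 to 7.43 for endothelial markers), the macrophage list differs by more in colitis than in healthy mice, and colonocyte, smooth muscle and adipocyte lists overlap in colitis and in healthy mice, where adipocyte levels ran from 7.56 to 8.25 with the probiotic and from 7.42 to 7.79 with saline.

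Macrophage genes also rose, with larger changes in colitis than in healthy mice that did not pass the test of the difference. Of 20 tested members 4 rose and 0 fell, beside 1.25% and 0.325% of all genes tested. The median was 0.47 (0.84 within colitis, 0.17 within healthy mice), with 19 positive changes. The 4 were Adgre1, Clec12a, Csf1r and Cx3cr1. Adgre1 encodes the F4/80 antigen of mouse tissue macrophages, Csf1r the receptor for the growth factor they live on, Clec12a an inhibitory lectin of myeloid cells and Cx3cr1 the fractalkine receptor of resident gut macrophages. Adgre1 was at 8.61, 8.64, 8.48 and 8.15 in probiotic colitis mice, against 7.45, 7.13, 7.99 and 7.44 in saline colitis mice. Probiotic healthy mice had levels of 7.11, 7.37, 7.46 and 7.44, against 6.68, 7.11, 6.97 and 7.09 in saline healthy mice. The groups were apart in both states, in healthy mice only just, with probiotic mouse 4 and saline mouse 4 both at 7.11. Adgre1 rose by 0.68 ± 0.13 (1.6-fold, adjusted p 0.02), with 0.97 ± 0.16 within colitis and 0.38 ± 0.16 within healthy mice.

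Clec12a had the largest change of the named genes. It was at 8.61, 8.25, 7.93 and 7.33 in probiotic colitis mice, against 6.62, 5.76, 6.79 and 6.35 in saline colitis mice. Without colitis the levels were 5.65, 5.93, 5.59 and 5.76 in probiotic mice, against 5.21, 5.28, 5.33 and 5.36 in saline mice. The groups did not overlap in either state. The saline healthy mean (5.30) lay at the filter level, and the part of background in the healthy change was not tested. Clec12a rose by 1.04 ± 0.21 (2.06-fold, adjusted p 0.028), with 1.65 ± 0.23 within colitis and 0.44 ± 0.23 within healthy mice, and the difference of the 2 had an adjusted p of 0.396. Csf1r rose by 0.70 ± 0.16 (1.63-fold, adjusted p 0.0383). Its groups were apart in healthy mice, and in colitis probiotic mouse 8 (9.01) lay under saline mouse 7 (9.07). Cx3cr1, named after its value was seen, rose by 0.27 ± 0.06 (adjusted p 0.0439).

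Other genes that rose are known from myeloid cells. Fgl2 encodes a fibrinogen-like protein made by macrophages and regulatory T cells. It was at 9.58, 9.70, 9.74 and 9.43 in probiotic colitis mice, against 8.66, 8.47, 9.11 and 8.95 in saline colitis mice. In healthy mice its levels were 9.17, 9.22, 9.19 and 9.27 with the probiotic and 8.40, 8.73, 8.93 and 8.77 with saline. In both states the groups were apart, and the change was 0.66 ± 0.10 (1.58-fold, adjusted p 0.0044). Ptpre, a receptor-type tyrosine phosphatase whose promoter is printed above, was at 8.26, 8.08, 8.27 and 8.15 in probiotic colitis mice, against 7.68, 7.56, 7.68 and 7.55 in saline colitis mice. In probiotic healthy mice it was at 7.71, 7.85, 7.69 and 7.64, against 7.36, 7.58, 7.41 and 7.34 in saline healthy mice. Its change was 0.43 ± 0.06 (1.35-fold, adjusted p 0.0044), and its groups were apart in both states. Rab7b, a small GTPase of late endosomes, rose by 0.54 ± 0.08 (1.46-fold), and Gpr141b, an orphan receptor, by 0.61 ± 0.09 (1.52-fold). Pld4, an exonuclease of the endolysosome, rose by 0.86 ± 0.19 (adjusted p 0.0348) and Ms4a4a, a tetraspan membrane protein of macrophages, by 0.79 ± 0.19 (adjusted p 0.0437). Cp, the copper-carrying ferroxidase ceruloplasmin, rose by 0.92 ± 0.20 (1.9-fold, adjusted p 0.0348). Its 4 probiotic healthy arrays, at 7.54, 7.72, 7.44 and 7.56, lay above the saline healthy arrays, at 6.56, 6.74, 6.95 and 6.96. Retnla, a resistin-like protein of alternatively activated macrophages, rose by 0.81 ± 0.19 (adjusted p 0.0452), but both colitis groups averaged under the filter level (4.52 with the probiotic and 3.59 with saline), so its change rests on dim signals there.

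Of 14 complement components and receptors 4 rose and 0 fell, beside 1.25% and 0.325% of all genes tested. The median was 0.47 (0.71 within colitis, 0.25 within healthy mice), with 14 positive changes. The 4 were Serping1, C3ar1, C1qb and C1qa. C1qa and C1qb are chains of the recognition component of the classical pathway, Serping1 is the inhibitor of its proteases and C3ar1 the receptor for the C3a fragment. C1qb was at 10.77, 11.03, 10.90 and 10.24 in probiotic colitis mice, against 9.34, 8.78, 10.10 and 9.54 in saline colitis mice. Probiotic healthy mice had levels of 9.13, 9.44, 9.21 and 9.65, against 9.10, 9.01, 8.97 and 8.79 in saline healthy mice. The groups were just apart in both states, with probiotic colitis mouse 8 nearest to the saline mice. C1qb rose by 0.84 ± 0.19 (1.79-fold, adjusted p 0.0367), with 1.29 ± 0.22 within colitis and 0.39 ± 0.22 within healthy mice. Serping1 rose by 0.74 ± 0.16 (1.67-fold, adjusted p 0.0326) and C3ar1 by 0.62 ± 0.14 (1.54-fold, adjusted p 0.0348). C1qa, named after its value was seen, rose by 0.56 ± 0.14 (adjusted p 0.0499).

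Both chains of an MHC class II molecule rose as well. Of 10 tested genes of MHC class II presentation 2 rose and 0 fell, beside 1.25% and 0.325% of all genes tested. The median was 0.45 (0.72 within colitis, 0.20 within healthy mice), with 10 positive changes. The 2 were H2-Ab1 and H2-Aa, the chains of the class II molecule I-A. H2-Ab1 was at 12.61, 12.72, 12.63 and 11.95 in probiotic colitis mice, against 11.89, 10.92, 11.82 and 11.77 in saline colitis mice. In healthy mice its levels were 10.93, 10.93, 10.92 and 11.13 with the probiotic and 10.64, 10.48, 10.51 and 10.49 with saline. The groups were apart in both states, with probiotic colitis mouse 8 and saline colitis mouse 6 far below their groups. H2-Ab1 rose by 0.66 ± 0.14 (1.58-fold, adjusted p 0.0297) and H2-Aa by 0.61 ± 0.13 (1.52-fold, adjusted p 0.0345). MHC class I presentation had 0 of 10 called and a median of 0.26, and dendritic cell markers had 0 of 11 called and a median of 0.16 (0.10 without saline colitis mouse 6).

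The mean level of the macrophage list was 8.20 to 8.86 in probiotic colitis mice, against 7.41 to 8.31 in saline colitis mice, and in healthy mice 7.31 to 7.51 with the probiotic, against 7.14 to 7.32 with saline. Probiotic colitis mouse 8 and saline colitis mouse 6 were the lowest of their groups here, as they were on the first principal component. The part of unequal colitis between the treatments in these changes was not tested, and without those 2 mice and saline healthy mouse 2 the macrophage median was 0.47 with 6 members called. Over the 16 fits that left out 1 array, 1 to 7 macrophage genes, 0 to 6 complement genes and 0 to 3 class II genes were called (4 complement and 7 class II genes without the 3 arrays that stood apart), and the macrophage median ran from 0.37 to 0.53. Adgre1, Fgl2, Ptpre, Rab7b and Gpr141b kept their calls in all 16. Clec12a lost its call without saline colitis mouse 10 or probiotic colitis mouse 5 or 7 (adjusted p up to 0.0703), and H2-Ab1 without those or probiotic colitis mouse 3 (up to 0.0737). H2-Aa and Serping1 kept theirs in 10 of the 16 fits, C1qb and C3ar1 in 9, Pld4 and Cp in 8, Csf1r in 7, Cx3cr1 and C1qa in 4, Retnla in 3 and Ms4a4a in 2, with a highest adjusted p of 0.0778 to 0.105. Each of these 11 was lost without saline colitis mouse 10 or probiotic colitis mouse 5 or 7.

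**Figure D4:**
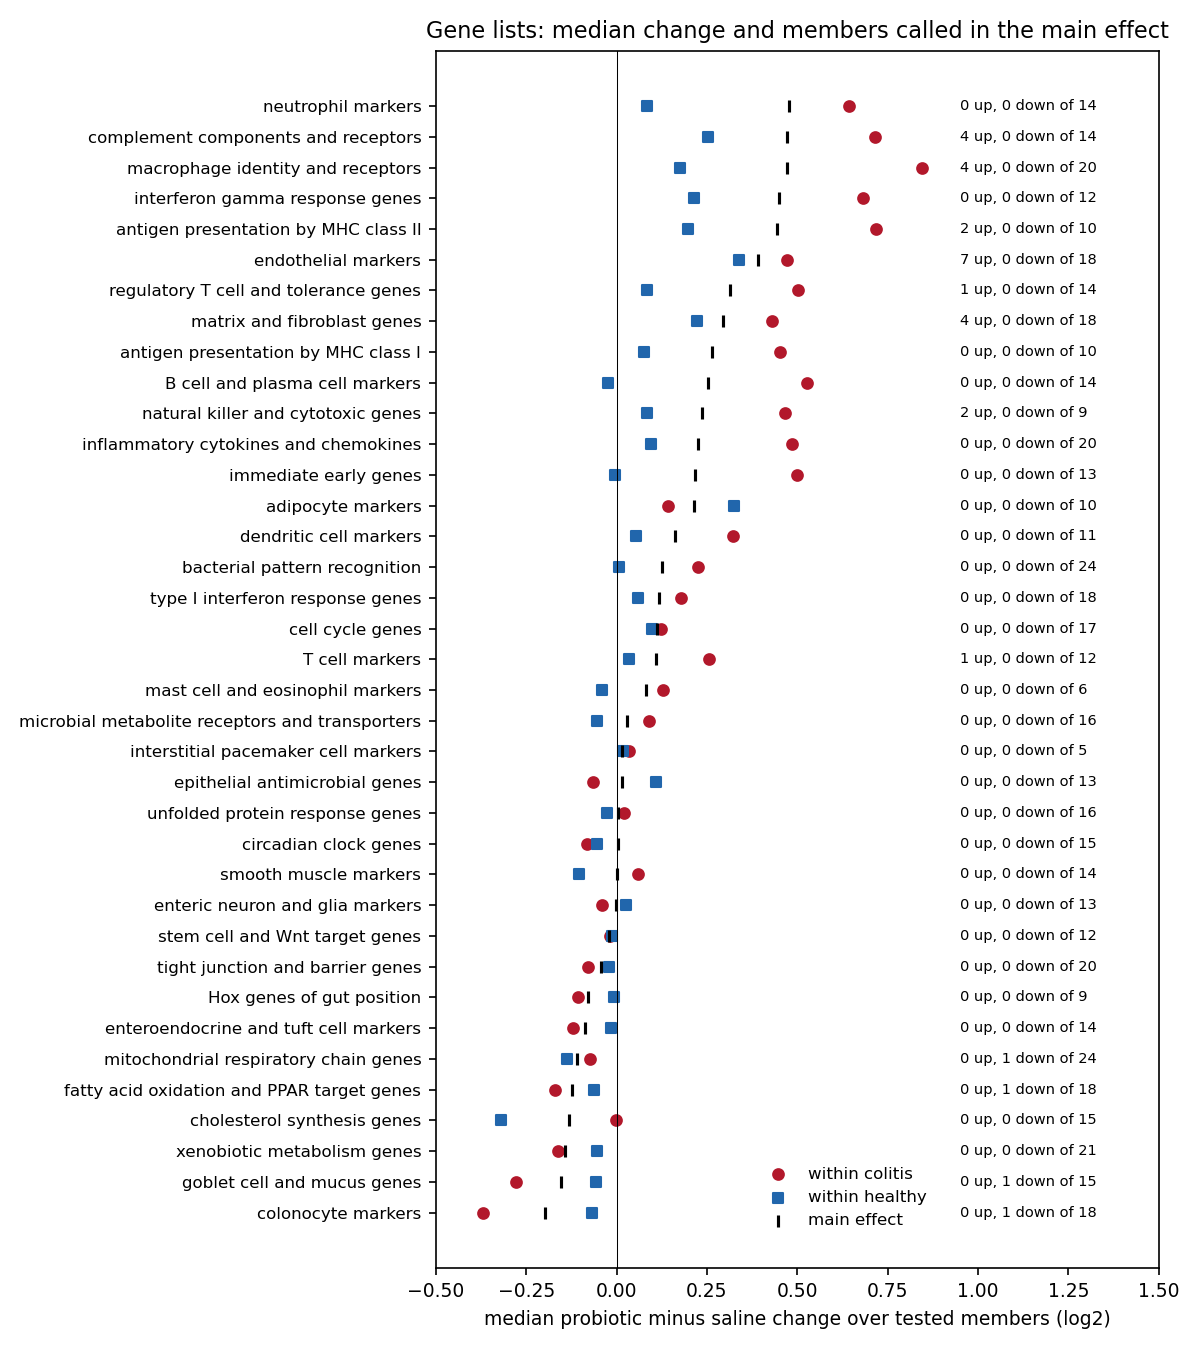
Median probiotic minus saline log2 change of each list with at least 5 tested members, within colitis (circles), within healthy mice (squares) and as main effect (bars), with the number of members called at the right. Endothelial markers have 7 of 18 members called and similar medians in both states (0.47 and 0.34). The macrophage list has 4 of 20 called and medians of 0.84 in colitis and 0.17 in healthy mice. Over all genes tested 1.25% rose.

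Some lymphocyte genes rose, beside 1.25% of all genes tested. All 12 changes of the T cell list and all 9 of the natural killer and cytotoxic list were positive. So were 13 of 14 in the regulatory T cell and tolerance list and 13 of 14 in the B cell and plasma cell list. Cd4, the coreceptor of helper T cells, which some gut macrophages of the mouse also carry, was at 8.52, 9.07, 8.62 and 8.74 in probiotic colitis mice, against 8.33, 7.02, 7.79 and 7.51 in saline colitis mice. Without colitis the levels were 7.43, 7.41, 7.13 and 7.27 in probiotic mice, against 6.88, 6.86, 6.75 and 6.24 in saline mice. In both states the groups were apart, and saline colitis mouse 5 was closest to the probiotic mice. Cd4 rose by 0.85 ± 0.16 (1.81-fold, adjusted p 0.0185), with 1.08 ± 0.21 within colitis and 0.63 ± 0.21 within healthy mice, and kept its call in all 16 fits that left out 1 array. It was the 1 of 12 T cell markers called, and the median of that list was 0.11 (0.05 without saline colitis mouse 6 and 0.26 without saline colitis mouse 5). Havcr2, an inhibitory receptor of T cells and myeloid cells also known as TIM-3, was the 1 of 14 regulatory T cell and tolerance genes called and rose by 0.68 ± 0.16 (adjusted p 0.0415). Among 9 natural killer and cytotoxic genes 2 rose, the activating receptors Ncr1, by 0.50 ± 0.10 (adjusted p 0.028), and Klrk1, by 0.51 ± 0.12 (adjusted p 0.0499). The list's median was 0.24. Ncr1 lost its call without saline healthy mouse 2, saline colitis mouse 10 or probiotic colitis mouse 5 or 7 (adjusted p up to 0.0597), while Havcr2 and Klrk1 kept theirs in 7 and 2 of the 16 fits (up to 0.0915 and 0.103). B cell and plasma cell markers had 0 of 14 called and a median of 0.25, with −0.02 within healthy mice, and without saline colitis mouse 6 the median was 0.10.

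Lists that stand for acute inflammation had positive medians and no member called. At the share of 1.25% of all genes that rose, lists of this size would hold few calls or none, so that a count of 0 does not set them apart. Neutrophil markers had 0 of 14 called and a median of 0.48, interferon gamma response genes 0 of 12 and 0.45, inflammatory cytokines and chemokines 0 of 20 and 0.23, and bacterial pattern recognition genes 0 of 24 and 0.13. Without the 3 arrays that stood apart 2 interferon gamma response genes were called. The mean level of the neutrophil list was 6.54 to 8.92 in probiotic colitis mice, against 6.42 to 8.99 in saline colitis mice. Leaving out 1 array moved the neutrophil median between 0.26 (without saline colitis mouse 6) and 0.77 (without probiotic colitis mouse 8), and that of the cytokines between 0.07 and 0.49 without the same 2 mice. Csf3r, the receptor for granulocyte colony-stimulating factor and the neutrophil gene with the smallest p, had a change of 0.74 ± 0.35 (adjusted p 0.27), and Ccl8, a monocyte chemokine, one of 0.91 ± 0.25 (adjusted p 0.071).

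Sntb1, Ssbp2 and Abcd2 rose and belong to none of the lists. Sntb1, a syntrophin of the dystrophin complex at the cell membrane, had the smallest p of all named genes. It was at 7.43, 7.49, 7.48 and 7.33 in probiotic colitis mice, against 6.81, 6.57, 6.78 and 6.90 in saline colitis mice. In probiotic healthy mice it was at 7.74, 7.58, 7.64 and 7.72, against 7.18, 7.45, 7.05 and 7.39 in saline healthy mice. The groups were apart in both states, more widely in colitis, and the change was 0.54 ± 0.07 (1.45-fold, adjusted p 0.0044). Ssbp2, a single-stranded DNA binding protein, rose by 0.39 ± 0.06 (1.31-fold, adjusted p 0.0044). Abcd2, which carries very long chain fatty acids into peroxisomes, had about the same change in both states, 0.88 ± 0.23 within colitis and 0.87 ± 0.23 within healthy mice, and rose by 0.88 ± 0.16 (1.84-fold, adjusted p 0.0185). Its saline arrays were uneven, with saline healthy mouse 7 at 6.59 and the other 3 at 5.71 to 5.79. All 3 kept their calls in each of the 16 fits that left out 1 array.

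The genes that fell were fewer and changed less. Hacd1, a dehydratase of very long chain fatty acid elongation, was at 8.07, 7.99, 8.02 and 8.27 in probiotic colitis mice, against 8.39, 8.55, 8.40 and 8.47 in saline colitis mice. Probiotic healthy mice had levels of 8.75, 8.63, 8.62 and 8.69, against 9.04, 9.01, 8.87 and 9.03 in saline healthy mice. In both states the groups were apart, and Hacd1 changed by −0.34 ± 0.05 (0.79-fold, adjusted p 0.0044). Within colitis the change was −0.37 ± 0.07 and within healthy mice −0.32 ± 0.07, and colitis itself lowered Hacd1 by a disease term of −0.56. Sec61b, a subunit of the channel through which new proteins enter the endoplasmic reticulum, was at 6.35, 6.12, 6.49 and 6.41 in probiotic colitis mice, against 6.50, 6.74, 6.77 and 6.70 in saline colitis mice. In healthy mice its levels were 6.47, 6.25, 6.41 and 6.47 with the probiotic and 6.94, 6.63, 6.78 and 6.80 with saline. The groups were apart, in colitis only just, between probiotic mouse 7 and saline mouse 5. Sec61b changed by −0.36 ± 0.06 (0.778-fold, adjusted p 0.0135).

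Among the named genes the largest falls were in structural RNAs. Rpph1, the RNA of ribonuclease P, was at 11.44, 11.40, 10.78 and 11.15 in probiotic colitis mice, against 12.42, 12.80, 11.45 and 12.78 in saline colitis mice. Without colitis the levels were 11.84, 11.38, 11.23 and 10.99 in probiotic mice, against 12.41, 11.92, 12.04 and 12.33 in saline mice. The groups were narrowly apart in both states, since saline colitis mouse 7 and probiotic healthy mouse 4 lay near the other treatment. Rpph1 changed by −0.99 ± 0.18 (0.503-fold, adjusted p 0.0185). Rnu3a, a U3 small nucleolar RNA that guides cleavage of ribosomal RNA precursors, changed by −0.91 ± 0.17 (0.533-fold, adjusted p 0.02), with all 8 probiotic arrays below the saline arrays of their state. Norad, a long noncoding RNA that binds Pumilio proteins, changed by −0.24 ± 0.05 (adjusted p 0.026). Noncoding genes made up 9 of the 54 lower genes (16.7%) and 3 of the 208 higher ones (1.44%). Of the 16555 tested genes found in RefSeq they made up 1455 (8.79%). Among 47 tested small nucleolar RNA genes 3 fell and 0 rose, with a median of −0.09, beside 0.325% and 1.25% of all genes tested. The genes that fell were also short: their median genomic span was 8.17 kb, against 36.1 kb for those that rose and 20.2 kb over the tested genes found in RefSeq. Whether span or RNA class bears on the change was not tested.

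A few genes of the epithelium fell, beside 0.325% of all genes tested that fell. The lists below each had 1 member called, and a single call is not a result for its list. The median change over all genes was −0.01. Fabp2, the fatty acid binding protein of enterocytes, was at 6.95, 6.31, 6.61 and 7.09 in probiotic colitis mice, against 7.28, 7.54, 7.48 and 7.73 in saline colitis mice. In probiotic healthy mice it was at 7.43, 6.97, 6.62 and 7.10, against 7.96, 7.54, 7.28 and 7.67 in saline healthy mice. Colitis groups were apart, and in healthy mice probiotic mouse 4 overlapped saline mouse 6. Fabp2 changed by −0.67 ± 0.13 (0.627-fold, adjusted p 0.02), the 1 called of 18 fatty acid oxidation and PPAR target genes, whose median was −0.12. Agr2, the disulphide isomerase that goblet cells need to fold mucin, was the 1 called of 15 goblet cell and mucus genes and changed by −0.28 ± 0.06 (adjusted p 0.0297). The list's median was −0.15. Guca2b, which encodes the hormone uroguanylin that drives chloride secretion, was the 1 called of 18 colonocyte markers and changed by −0.33 ± 0.07 (adjusted p 0.0318). That list had a median of −0.20 (−0.37 within colitis, −0.07 within healthy mice) and 16 negative changes, and without probiotic colitis mouse 5 its median was −0.12.

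Of 24 respiratory chain genes 1 fell past the threshold, beside 0.325% of all genes tested. All 24 changes were negative (−0.31 to −0.01), with a median of −0.11, beside −0.01 over all genes. The 1 called was Ndufa1, a subunit of complex I, which changed by −0.31 ± 0.07 (adjusted p 0.0426). Cox7a1, the muscle form of a cytochrome oxidase subunit, and Ckmt2, the muscle form of mitochondrial creatine kinase, changed by −0.36 ± 0.08 (adjusted p 0.0345) and −0.50 ± 0.10 (adjusted p 0.0263). The probiotic colitis mean of Ckmt2 (5.17) lay under the filter level. Rbp2, a retinol carrier of enterocytes, changed by −0.40 ± 0.09 (adjusted p 0.0434), and the carbonyl reductase Cbr3 by −0.59 ± 0.13 (adjusted p 0.0396). Mettl7b, a methyltransferase of lipid droplets and the endoplasmic reticulum, changed by −0.40 ± 0.09 (adjusted p 0.0396). Arl14, a small GTPase, changed by −0.49 ± 0.10 (adjusted p 0.0297), Gnal, a stimulatory G protein subunit, by −0.43 ± 0.08 (adjusted p 0.02), Bri3 by −0.28 ± 0.05 (adjusted p 0.02) and Mien1 by −0.22 ± 0.04 (adjusted p 0.0239).

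Hacd1, Sec61b, Rpph1, Rnu3a, Bri3, Gnal and Fabp2 kept their calls in each of the 16 fits that left out 1 array. Mien1 lost its call without probiotic healthy mouse 5 or probiotic colitis mouse 7 (adjusted p up to 0.0523) and Ckmt2 without probiotic colitis mouse 3 or 7 (up to 0.0535). Norad lost it without saline colitis mouse 10 or probiotic colitis mouse 3, 5 or 7 (up to 0.0669), and Arl14 without those of probiotic colitis or probiotic healthy mouse 6 (up to 0.072). Agr2 and Guca2b kept theirs in 8 of the 16 fits (up to 0.0737 each), Rbp2 and Cbr3 in 7 (up to 0.0981 and 0.0873), and Cox7a1, Mettl7b and Ndufa1 in 6 (up to 0.0775, 0.0822 and 0.0978). Each of these 7 was lost without saline colitis mouse 10 or probiotic colitis mouse 5.

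Over the whole list of calls the number of genes moved with the arrays used, and most with the colitis mice. Leaving out 1 array gave 80 calls (without saline colitis mouse 10) to 413 (without saline colitis mouse 5), of which 77 and 238 were among the 262. The count also moved by over 1.5 times without probiotic colitis mouse 5 (81), 7 (81) or 3 (103), saline healthy mouse 2 (103) or 7 (130), probiotic healthy mouse 5 (103), 6 (131) or 7 (163) and saline colitis mouse 6 (149). In all, 65 genes were called in each of the 16 fits, 56 of them higher and 9 lower. Without the 3 arrays that stood apart 331 genes were called, 170 of them among the 262, and with only the 2 colitis mice of those 3 left out, 381 and 206. All genes of the 262 that could be tested kept their sign in each of these fits. The sign is no independent check, because the genes were chosen for passing in arrays that these fits largely share.

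**Figure D5:**
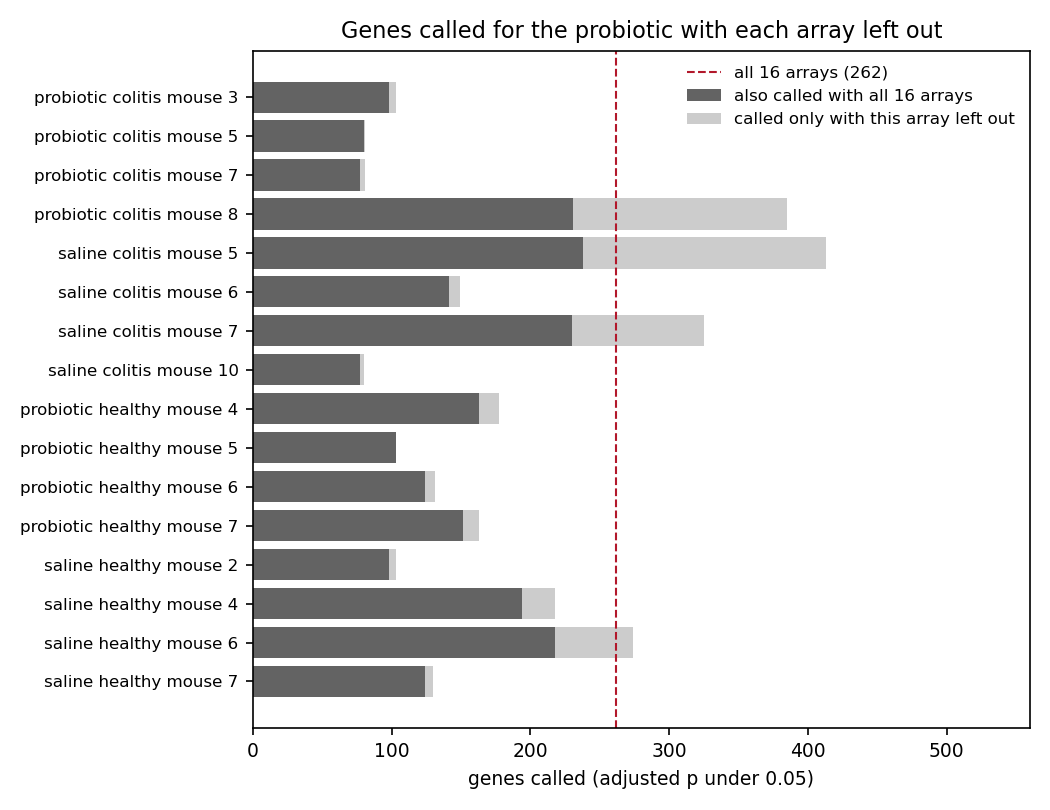
Number of genes called for the probiotic with 1 array left out, a bar per array, on an axis that starts at 0. The dark part of each bar is the genes also called with all 16 arrays, the light part those that were not, and the dashed line marks the 262 called with all arrays. Bars run from 80 without saline colitis mouse 10 to 413 without saline colitis mouse 5.

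Healthy mice varied less than colitis mice, and a fit of the 8 healthy arrays alone called 19 genes, all higher with the probiotic. The named ones include Lyve1 (0.77), Dcn (0.58), Cp (0.76), Ms4a4a (0.74), Osr1 (0.56) and Serping1 (0.52), where the value is the log2 change in healthy mice. The rest, which were named after their values were seen, include the adhesion molecule Vcam1 (0.58), the intermediate filament Vim (0.50), the matrix genes Ecm2 (0.71) and Mfap5 (0.57), the oncostatin M receptor Osmr (0.54), the terminal complement component C7 (0.54), the Fc receptor chain Fcer1g (0.53) and the lipocalin Apod (0.77). The colitis values of these 19 genes come from mice that did not enter that fit, but the genes are not independent of each other. In the 8 colitis arrays all 19 were positive, with changes of 0.14 (C7) to 1.87. Their median was 0.72, beside 0.58 in healthy mice. In limma 14 of the 19 had an unadjusted p under 0.05 there, beside 2529 of all 16634 genes in either direction. Over all genes 58.8% had the same sign in both states. In 3 of the 19 (Dcn, Osr1 and Ecm2) the colitis groups did not overlap either, and 12 of the 19 were called in the main effect. A fit of the 8 colitis arrays alone called 0 genes (2529 at an unadjusted p under 0.05, smallest adjusted p 0.0988).

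Genes nearest to a difference between the states are given for completeness, since none passed. P2rx7, the ATP-gated channel of macrophages and T cells, was at 8.72, 8.91, 8.69 and 8.65 in probiotic colitis mice, against 8.27, 7.95, 8.14 and 8.17 in saline colitis mice. In healthy mice it was at 8.07, 8.24, 8.21 and 8.16 with the probiotic and at 8.04, 8.11, 8.33 and 8.10 with saline. The colitis groups were apart and the healthy groups mixed, and the difference of the changes had an adjusted p of 0.347. Prdm1, the factor that drives plasma cell formation, changed by 0.90 ± 0.14 within colitis and −0.15 ± 0.14 within healthy mice (adjusted p of the difference 0.288). Aif1, the macrophage protein IBA1, changed by 0.81 ± 0.13 and −0.16 ± 0.13 in the same 2 states (adjusted p of the difference 0.288). The difference of Aif1 passed without probiotic colitis mouse 8 (adjusted p 0.0281) and without the 3 arrays that stood apart (0.0266), and that of Prdm1 passed without those 3 (0.037). St3gal3, a sialyltransferase, changed by −0.48 ± 0.07 within colitis and 0.09 ± 0.07 within healthy mice (adjusted p of the difference 0.288). The remaining genes with the smallest p were Tmem67 and Sectm1a on the positive side and Uchl3, Rflnb, Ccnl2 and Cyp2c65 on the negative side, at adjusted p values of 0.288 to 0.368. The interaction called 0 to 21 genes over the 16 fits that left out 1 array (21 without probiotic colitis mouse 8), and 14 without the 3 arrays that stood apart.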

How the data were processed

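The 16 Affymetrix arrays each hold the middle colon of 1 mouse, in 4 groups of 4. Each deposited value is the log2 signal of a probe set, which the authors normalised with RMA per the submitters' processing notes (version not given in the sources used here), and it was not changed further. Of 41801 probe sets 29195 had values and 12606 none. GEO's platform annotation gave 1 symbol for 22360, several for 1013 and none for 5822, and probe sets with several or none were tested apart. A probe set entered the fit if it exceeded 5.301 (the 25th percentile) on at least 4 of 16 arrays, and of several for 1 gene (602 genes) the one with the highest mean was used. This left 16634 of 21423 symbols, with 4789 too dim. RefSeq's GRCm38.p6 table held 16555 of the tested genes, with 0 symbols changed.

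The fit used limma 3.58.1 in R 4.3.3 (lmFit and eBayes, with 13 residual degrees of freedom and 3.90 from the prior), with Benjamini-Hochberg adjustment over all genes and calls at an adjusted p under 0.05. Changes are probiotic minus saline, with standard errors. The additive fit assumes 1 spread for healthy and colitis mice, and colitis mice varied more. The number of arrays limits the precision. The fit was tested on simulated data.

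The text names the 12 genes with the largest change in each direction among those called, the 8 with the smallest p in each direction among those also separated in both states, the 5 nearest to an interaction in each direction, and up to 3 called members per list. It leaves out predicted genes, numbered noncoding genes and single antigen receptor segments. The members and the 38 lists, taken from general knowledge, were chosen with earlier results of these data known. Lists were not tested and are given as counts and medians. Alternatives were another filter, scaling, probe set rule, moderation or weighting, animal number as a block, all 20 arrays, the average of both contrasts, and leaving out arrays. Animal numbers were not treated as pairs.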

Additional observations from a re-analysis of the deposited data

Results flagged for a closer look

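In groups of 4 mice, 20 of 248 group and gene combinations (62 genes, 8.06%) had 1 mouse so far from the other 3 that its gap to them passed Dixon's limit, where chance gives about 1 in 20. Of the 20, 9 were probiotic colitis mouse 8. Its gap was 0.873 of the range for Gpr141b (7.21, the others 6.83 to 6.88) and 0.883 for Norad (10.5, the others 10.28 to 10.31), where it was the highest. It was the lowest for H2-Ab1 (0.856), Serping1 (0.844), Pld4 (0.886), Cp (0.832), Ms4a4a (0.843) and Aif1 (0.89), and the highest for Rbp2 (0.837). Saline colitis mouse 6 was the highest for Ckmt2 (0.966) and the lowest for H2-Ab1 (0.878). Saline healthy mouse 2 was the lowest for Ptprb (0.844) and Serping1 (0.884). Probiotic healthy mouse 7 was the highest for Tek (0.842), H2-Ab1 (0.93) and Uchl3 (0.926). The others were saline healthy mouse 7 for Abcd2 (0.906), saline colitis mouse 5 for Agr2 (0.926), saline colitis mouse 10 for Sectm1a (0.846) and probiotic colitis mouse 7 for Ssbp2 (0.833), whose whole group spread by little (8.25 to 8.27).

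In 2 of the 10 genes named for the smallest p of the interaction, every probiotic mouse lay below every saline mouse in colitis and above every saline mouse in healthy animals. Over all 16634 genes 10 were separated in this way (0.0601%) and 3 in the opposite way (0.018%). The change in colitis minus that in healthy mice was −0.99 (−0.9895) for Uchl3, a ubiquitin hydrolase whose saline healthy mean (5.19) lay under the filter level, and −0.50 (−0.501) for Rflnb, a filamin regulator. The test of the difference passed for neither (adjusted p 0.288 each), and Uchl3 passed without probiotic colitis mouse 8 (adjusted p 0.0281).

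Probe sets without a single gene symbol, which no count above includes, gave 5 calls in the main effect. Among 2992 with no symbol 3 rose and 1 fell, and among 833 with several symbols 1 rose.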

How the results depend on the processing

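The count of 262 genes in the main effect ran from 176 (no filter) to 381 (without the 2 colitis arrays that stood apart, chosen after seeing the data) over the other filters, scalings, weights and array sets, and from 80 to 413 with 1 array left out. Quantile normalization gave 194 up and 78 down and centring on the median 236 up and 40 down, beside 208 up and 54 down, while the median change of all genes stayed between −0.018 and −0.0044. With animal number as a block 1 gene was called. Saline healthy mouse 2, saline colitis mouse 10, probiotic colitis mouse 3 and probiotic colitis mouse 8 share their number with no other array. The block therefore took these mice out of the estimate, and it also used up degrees of freedom. Whether equal numbers pair the mice is not settled by the 5 same-numbered pairs of the same state, which are too few. Their correlations were −0.078 to 0.436, and 2 exceeded 0.1. Those 2 were the colitis pairs, mouse 5 (0.248) and mouse 7 (0.436). Saline colitis mouse 6 and probiotic colitis mouse 8, with unlike numbers, reached 0.509. Within colitis 338 genes became 87 with the block, 1513 with array weights, 771 without the 3 arrays that stood apart, 649 without 2 of them, 0 in the 8 colitis arrays alone and 35 to 1187 with 1 array left out. Within healthy mice 0 genes became 19 in the 8 healthy arrays alone and 0 to 0 with 1 array left out. For the interaction 0 genes became 14 and 22 without those 3 or 2 arrays, and 0 to 21 with 1 array left out. The cause was not tested, beyond fewer samples in the sets with arrays left out and in the fits with the block. Over 28 settings the 52 genes named for the main effect kept their direction in 1451 of 1451 values, and 1152 stayed past the threshold. Of the 299 that did not, 218 came from leaving out 1 array and 52 from the block. The kept direction is no independent check, because these genes were chosen for passing in arrays that the settings largely share. The 10 genes named for the interaction passed it in 7 of 268 values. Genes near the filter level are limited by signal over background.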

Other observations

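Some lists without a called member had unequal medians in the 2 states, and these differences were not tested. Adipocyte markers (0 of 10 called) had a median change of 0.32 within healthy mice and 0.14 within colitis. Their mean level was 7.56 to 8.25 in probiotic healthy mice, against 7.42 to 7.79 in saline healthy mice. Cholesterol synthesis genes (0 of 15 called) had a median of −0.00 within colitis and −0.32 within healthy mice, where the mean level was 8.63 to 9.32 with the probiotic, against 8.89 to 9.45 with saline, so that the groups overlapped. Msmo1, a sterol oxidase and the member with the smallest p, had a main effect of −0.30 ± 0.13 (adjusted p 0.228). Immediate early genes, which respond to handling and tissue removal, had a median of 0.50 within colitis and −0.01 within healthy mice with 0 of 13 called, and their main effect median was 0.22 (0.09 without probiotic colitis mouse 8).

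Immunoglobulin segments had 1 of 12 called, the kappa segment with the largest change of all genes, and a median of 0.45. Cell cycle genes had 0 of 17 called with a median of 0.11, unfolded protein response genes 0 of 16 with 0.00, and circadian clock genes 0 of 15 with 0.00. Tight junction genes had 0 of 20 called and a median of −0.04, xenobiotic metabolism genes 0 of 21 and −0.14, and Hox genes of gut position 0 of 9 and −0.08. The cell cycle median was 0.02 without saline healthy mouse 6. The remaining lists also had no member called. Medians were 0.08 for 6 mast cell and eosinophil markers, 0.12 for 18 type I interferon response genes, 0.01 for 13 epithelial antimicrobial genes and −0.02 for 12 stem cell and Wnt target genes. They were −0.09 for 14 enteroendocrine and tuft cell markers, 0.03 for 16 receptors and transporters of microbial metabolites and 0.02 for 5 interstitial pacemaker cell markers, and the 1 erythroid marker tested had a change of −0.03.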
